A study of Rattus norvegicus with 78 samples.

Results

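The genes described here repair DNA or belong to the damage response run by the transcription factor p53. Of 48 genes named in a list of both kinds, 39 had a probe set (a group of probes summarised to 1 value) with a single matching symbol, out of 14506 genes with such a probe set and 29214 probe sets in all, and each of the 39 had exactly 1. The other 9 (Ercc2, Ercc4, Ercc5, Ddb1, Ddb2, Msh6, Prkdc, Atr and Sesn2) were not analysed here. The arrays held RNA of sperm from the cauda epididymis of Fischer 344 rats, 1 array per sample. The 20 control rats at the end of exposure had received corn oil, and 20 further rats had received DBCP (dibromochloropropane, once used against soil nematodes and toxic to male germ cells) at 5 mg/kg/day, with an exposure of 3 months per the text of the series. Recovery groups of 19 corn oil rats and 19 DBCP rats were sampled after a period without exposure, for which the labels state no length. No genotype is named, and the labels state no age of the rats.

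Cells mend DNA by routes matched to the damage: enzymes that reverse an alkylated base directly, glycosylases and ligases that cut out and replace damaged bases, a larger machine that removes bulky adducts, and systems for mismatches and for breaks of both strands. Kinases such as Atm report damage to p53, which switches on genes that halt the cell cycle, supply nucleotides or restrain p53 itself. DBCP is known to bind DNA after conjugation with glutathione. Mature sperm make almost no RNA, so a sperm transcript is largely a remnant of earlier germ cell stages, or comes from other cells in the preparation.

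All values are log2 levels, in which a difference of 1 is a doubling of signal. Probe sets bind with different strength, so the levels of different genes are not ranked by abundance. The arrays had medians between 6.55 and 6.75. Genes that define late spermatids and sperm were bright: the mean of 18 such genes lay between 9.23 and 11.55 over the arrays. The leukocyte list (19 genes) averaged 8.46 ± 0.20 (SD, n = 20) in corn oil rats at the end of exposure, and the epididymal principal cell list (15 genes) 7.11 ± 0.20 (SD, n = 20). Spermatocyte markers averaged 6.39 ± 0.08 (SD, n = 20), below the median of all probe set means (6.69). In such bulk RNA, fewer cells of a type and less RNA per cell cannot be told apart. Among the 39 genes, the probe sets of Rad23b, Ccng1 and Apex1 (percentiles 94.8, 89.4 and 86.2) lay highest in the distribution of mean levels and those of Chek2, Chek1 and Rrm2b (percentiles 6.42, 16.7 and 22.3) lowest. By limma's array weights, 6 arrays stood apart with a weight under 0.5: DBCP replicates 2, 13 and 20, DBCP recovery replicates 7 and 15, and corn oil recovery replicate 11. Values without them are given where they matter.

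The promoters of 3 genes are shown because their genes carry the results below: Cdkn1a and Ccng1, p53 targets that moved in opposite directions over time, and Lig3, the ligase that followed the sperm transcripts. The sequences are from RefSeq on build GRCr8, each with 250 bases before the start of the gene and 50 after it. They lie at chr20:7150682-7150981 on the plus strand (Cdkn1a), chr10:25684827-25685126 on the minus strand (Ccng1) and chr10:68215121-68215420 on the plus strand (Lig3). In the sequences of Cdkn1a and Ccng1, the capitals mark a match to the p53 half-site consensus, and in that of Lig3 a GC box (GGGCGG).
Cdkn1a: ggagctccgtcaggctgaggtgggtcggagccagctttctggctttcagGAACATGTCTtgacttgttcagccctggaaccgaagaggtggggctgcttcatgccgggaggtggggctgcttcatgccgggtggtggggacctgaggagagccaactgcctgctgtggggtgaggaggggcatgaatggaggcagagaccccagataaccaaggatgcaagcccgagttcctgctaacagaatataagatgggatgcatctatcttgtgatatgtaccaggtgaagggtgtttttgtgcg
Ccng1: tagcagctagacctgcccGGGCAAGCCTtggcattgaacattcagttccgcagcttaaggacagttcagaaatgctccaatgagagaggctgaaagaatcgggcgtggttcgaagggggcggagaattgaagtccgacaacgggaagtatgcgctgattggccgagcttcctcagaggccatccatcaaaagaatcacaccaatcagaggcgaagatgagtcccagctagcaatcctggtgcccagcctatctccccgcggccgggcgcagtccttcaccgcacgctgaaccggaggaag
Lig3: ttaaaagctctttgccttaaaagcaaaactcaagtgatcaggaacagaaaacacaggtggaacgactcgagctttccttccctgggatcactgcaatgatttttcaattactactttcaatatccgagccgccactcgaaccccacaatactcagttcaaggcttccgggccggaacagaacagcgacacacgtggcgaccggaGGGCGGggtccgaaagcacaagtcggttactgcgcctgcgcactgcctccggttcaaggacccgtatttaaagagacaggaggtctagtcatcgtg
Counted from 0 at the gene's start, the p53 match begins at -201 in Cdkn1a and at -232 in Ccng1, and the GC box at -46 in Lig3. Promoters were found for 33 of the 39 genes. On either strand, 6 of the 33 (18.2%) held a p53 half-site, against 7.98% of 33469 promoters of the same length. A GC box was in 25 of 33 (75.8%, against 33.1% of all), and CCAAT in 14 (42.4%, against 37.5%). The E-box CACGTG was in 5 (15.2%, against 6.42%). TATAAA and the cyclic AMP element TGACGTCA were in 0 of the 33, against 14.2% and 1.83% of all promoters. A p53 half-site reads as a half-site on the opposite strand too and was counted once, and overlaps between different motifs were not removed. For the 33 genes only the first promoter entry of each was used, while the 33469 are all entries, not limited to genes on the array. The shares thus come from unlike sets. A match describes the letters only.

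The first comparison asked whether 3 months of DBCP changed these transcripts in sperm at the end of exposure. No gene of the list passed limma's test over all probe sets (0 of 39, where 0% of all probe sets passed in either direction). At an unadjusted p under 0.05 there were 6 (15.4% of the 39, against 11.6% of all probe sets). The median difference between DBCP and corn oil was 0.00, beside -0.02 over all probe sets. Above 0 were 21 of 39 genes (53.8%, against 38.0% of all probe sets). The largest differences lay in base excision repair and in 1 p53 target.

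Lig3, the ligase that seals single-strand breaks and has a form made in male germ cells, had the smallest p of the list. On corn oil arrays its level ran from 7.03 through a median of 7.39 to 7.80, and on DBCP arrays from 7.19 through 7.61 to 8.63. The ranges overlapped, and 4 DBCP arrays (replicates 2, 3, 13 and 20) lay above every other array of the study. The difference was 0.27 ± 0.07 (SE; 1.21-fold, limma adjusted p = 0.125), with 16 of 20 DBCP arrays above the corn oil mean. Without the 6 arrays of low weight it was 0.16 ± 0.06.

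Polb, the polymerase that fills the gap during base excision, had a median of 7.03 (6.48 to 7.40) on corn oil arrays and of 7.28 (6.67 to 8.78) on DBCP arrays. Its difference was 0.30 ± 0.10 (1.23-fold, limma adjusted p = 0.178; 16 of 20 arrays), and 0.15 ± 0.07 without the 6 arrays. The highest values were again those of DBCP replicates 13, 2 and 20. Apex1, which nicks the strand at a site that has lost its base, had medians of 7.71 (7.52 to 8.01) and 7.85 (7.66 to 8.35). Its difference was 0.15 ± 0.05 (limma adjusted p = 0.159), on 17 of 20 arrays. The glycosylase gene Ogg1, which removes oxidised guanine, had a difference of -0.11 ± 0.04 (limma adjusted p = 0.312), with medians of 6.59 on corn oil and 6.46 on DBCP arrays. Over the 12 genes of base excision and single-strand break repair, differences ran from -0.11 to 0.30. Above 0 were 5 of 12 (41.7%, against 38.0% of all probe sets). The median of the pathway was -0.02.

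Direct reversal is represented by Mgmt, the protein that takes alkyl groups off guanine. Its level ran from 5.83 through 6.16 to 6.55 on corn oil arrays and from 6.04 through 6.24 to 6.42 on DBCP arrays, so the DBCP range lay within the corn oil range. The difference of 0.08 ± 0.05 (limma adjusted p = 0.515) had a 95% interval from -0.02 to 0.18. The probe set lay at the 28.8th percentile of mean levels.

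Nucleotide excision repair, which removes bulky adducts, had 5 genes with differences from -0.06 to 0.19, none passing. Rad23b, which partners the damage sensor Xpc, was the highest of these. Both mismatch repair genes (Msh3 and Pms2) had values between -0.03 and -0.02. In homologous recombination the 5 genes ran from -0.08 to 0.00, and in end joining the 4 genes from -0.08 to 0.08. Among genes of damage signalling and translesion synthesis, Chek1, the checkpoint kinase that holds cells before division, had -0.16 ± 0.06 (limma adjusted p = 0.295). Its DBCP arrays had a median of 5.60 (5.15 to 6.02) and its corn oil arrays 5.76 (5.27 to 6.16), with 16 of 20 DBCP arrays below the corn oil mean.

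Of the p53 targets, Ccng1 (cyclin G1, which feeds back on p53) had the largest difference of all 39 genes. Its level ran from 7.18 through a median of 7.61 to 8.14 on corn oil arrays and from 7.15 through 7.85 to 9.15 on DBCP arrays. The difference was 0.33 ± 0.10 (1.26-fold, limma adjusted p = 0.165), with 18 of 20 DBCP arrays above the corn oil mean, and 0.24 ± 0.09 without the 6 arrays. The other targets lay close to 0. Cdkn1a, the inhibitor p21 that halts the cell cycle, had 0.03 ± 0.05 with an interval from -0.07 to 0.14 (limma adjusted p = 0.791). Mdm2, the ligase that marks p53 for destruction, had 0.01 ± 0.05 (limma adjusted p = 0.909), with an interval from -0.08 to 0.11. It changed sign without the 6 arrays. Gadd45a, a stress gene that slows division, had 0.08 ± 0.07 (limma adjusted p = 0.634).

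Beside these values, the sperm and spermatid list stood at 10.45 ± 0.44 (SD, n = 20) on DBCP arrays and 10.13 ± 0.35 (SD, n = 20) on corn oil arrays. Of its genes 18 of 18 were above 0, where 38.0% of all probe sets were, and 0 passed. The leukocyte list stood at 8.36 ± 0.22 and 8.46 ± 0.20. With the leukocyte and principal cell levels of each array as covariates, 6 of the 39 genes passed, where 4.54% of all probe sets did. These were Ccng1 (0.39 ± 0.09, limma adjusted p = 0.0124), Lig3 (0.29 ± 0.07), Apex1 (0.17 ± 0.05), Polb (0.35 ± 0.09) and Rad23b (0.28 ± 0.08), all higher in DBCP rats, and Chek1 (-0.20 ± 0.06). With the sperm and leukocyte levels as covariates 0 passed, where 0% of all probe sets did. In that fit Lig3 stood at 0.11 ± 0.05 and Polb at 0.10 ± 0.06 (limma adjusted p = 0.624 and 0.779). Over all alternatives described below, that fit included, Ccng1 ran from 0.24 to 0.42 and Apex1 from 0.08 to 0.23. Chek1 ran from -0.20 to -0.11.

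**Figure D1:**
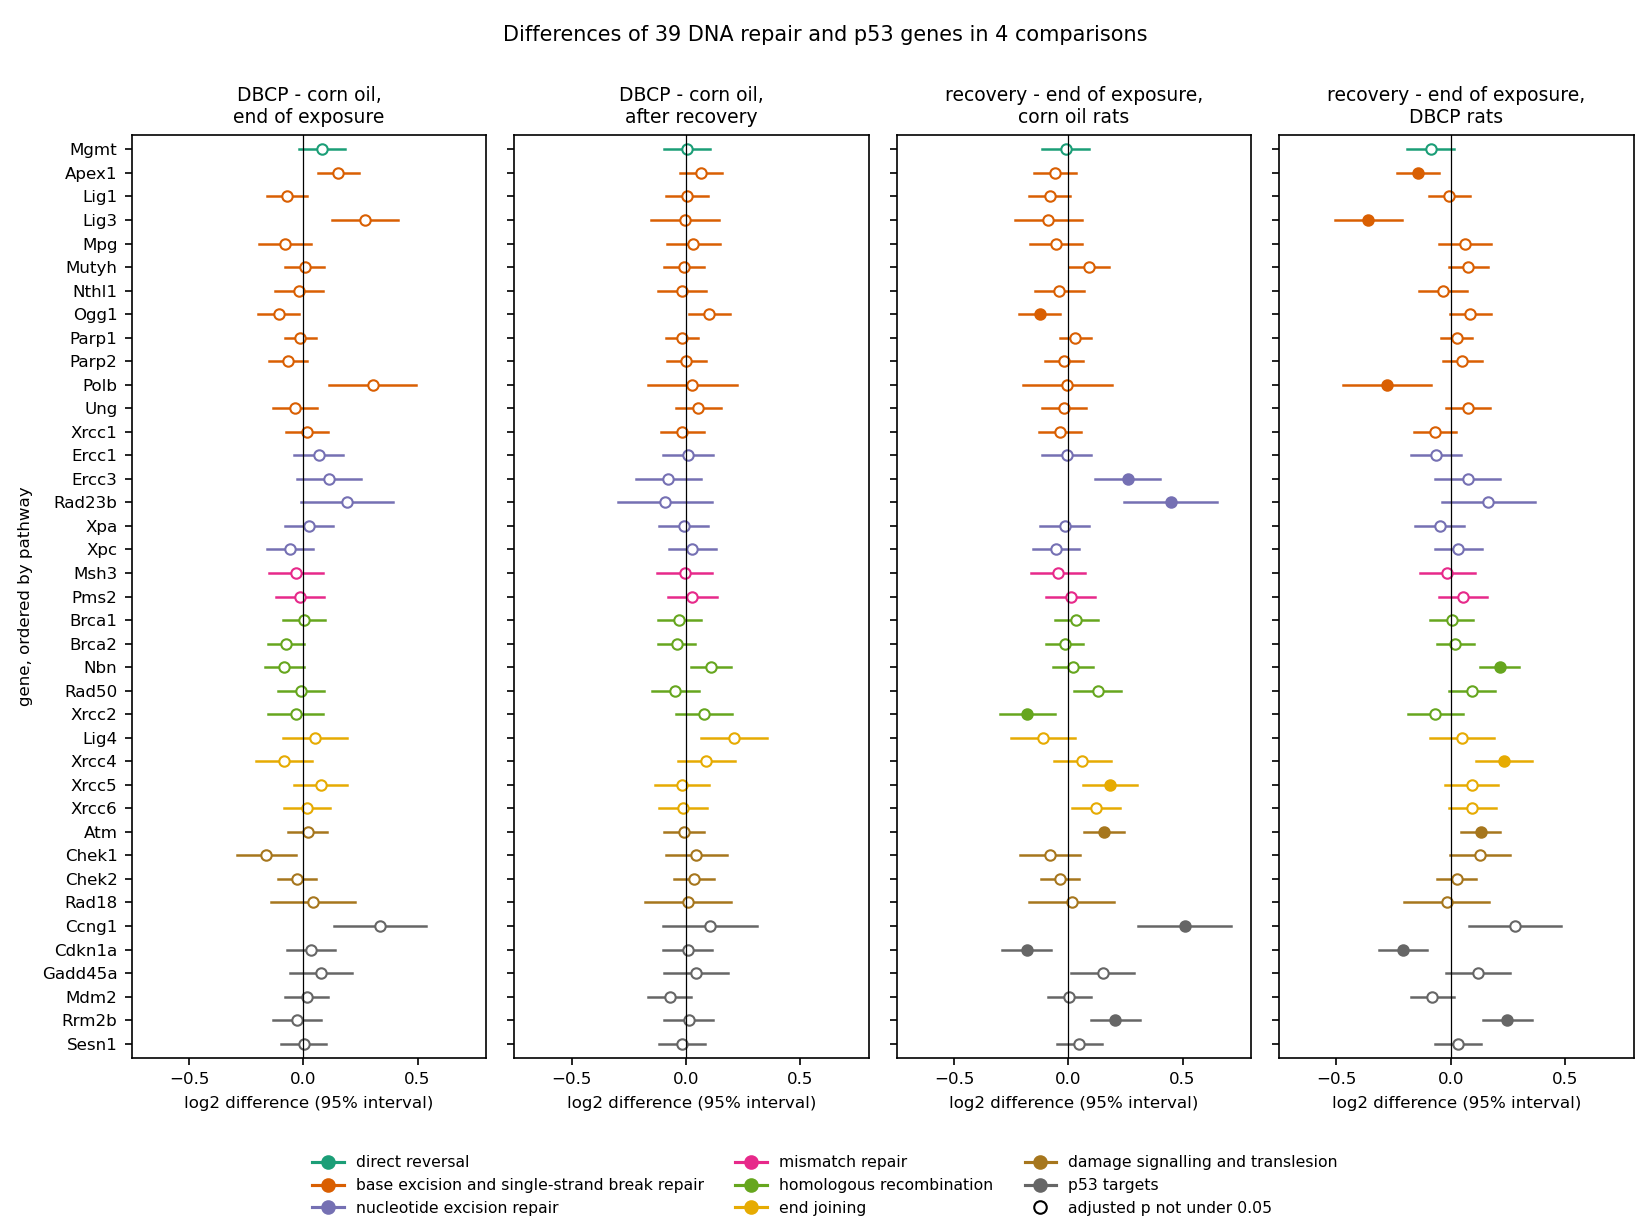
Log2 differences of the 39 genes in 4 comparisons (horizontal axis, with 95% intervals from the SE and 74 degrees of freedom), with genes on the vertical axis ordered and coloured by pathway. Filled points had a limma adjusted p under 0.05. There are 0 in both comparisons of DBCP with corn oil, 9 over time in corn oil rats and 8 over time in DBCP rats.

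The relation of single genes to the cell type levels was measured over the 78 arrays, after subtracting each group's mean from its arrays. With 39 genes and 2 lists there were 78 relations, tested by permuting arrays within groups (100000 resamples, two-sided) and adjusted by Benjamini-Hochberg. With the sperm and spermatid level, 19 of 39 genes passed (48.7%), 9 positive and 10 negative. Of all probe sets, 52.9% had an r at least as far from 0 as the weakest of these 19 (0.270), so the count is near the background. All values of an array share its scaling, and the part of that in these relations was not tested.

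Polb and Lig3 followed the sperm level most closely. For Polb, Pearson's r was 0.826 and Spearman's rho 0.733 (permutation p = 1e-05 for each, the smallest that these resamples can give; adjusted p = 0.000195), and r was 0.785 without the 2 arrays farthest from the median. Within the groups r was 0.825 (corn oil), 0.902 (DBCP), 0.741 (corn oil recovery) and 0.749 (DBCP recovery). For Lig3, r was 0.798 and rho 0.720 (permutation p = 1e-05 for each, adjusted p = 0.000195), and r was 0.761 without the 2 arrays. Its values within the groups were 0.695, 0.947, 0.561 and 0.728 in the same order. The next was Rad18, a ubiquitin ligase that lets replication pass damaged bases, with r = 0.474 (rho = 0.413, permutation p = 3e-05 and 0.00024, adjusted p = 0.000468; r = 0.506 without the 2 arrays). Apex1 had r = 0.296 but rho = 0.113 (permutation p = 0.0159 and 0.332, adjusted p = 0.0379 for r), and r = 0.168 without the 2 farthest arrays, so its relation rested on them. At the other end, Chek1 had r = -0.422 (rho = -0.340, permutation p = 0.00012 and 0.0027, adjusted p = 0.00117; -0.319 without the 2 arrays) and Cdkn1a r = -0.375 (rho = -0.389, permutation p = 0.00054 and 0.00047, adjusted p = 0.00324; -0.381).

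With the leukocyte level, 16 of 39 genes passed (41.0%), 12 of them positive, and 51.9% of all probe sets had an r at least as far from 0 as the weakest of the 16 (0.273). Ercc3, the helicase that opens DNA around a bulky adduct, had r = 0.607 (rho = 0.649) and Rad23b r = 0.579 (rho = 0.629), each with permutation p = 1e-05 and adjusted p = 0.000195, and 0.606 and 0.580 without the 2 farthest arrays. Ccng1 had r = 0.411 (rho = 0.412, permutation p = 0.00021 and 0.00022, adjusted p = 0.00164; 0.452 without the 2 arrays), while its r with the sperm level was 0.218 (rho = 0.184, permutation p = 0.0781 and 0.116, adjusted p = 0.145; 0.192). Ccng1 thus did not pass with the sperm level, unlike Lig3 and Polb. Within the groups its r with the sperm level was -0.078 (corn oil), 0.153 (DBCP), 0.468 (corn oil recovery) and 0.481 (DBCP recovery). With the leukocyte level it was 0.225, 0.482, 0.231 and 0.605 in the same order.

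**Figure D2:**
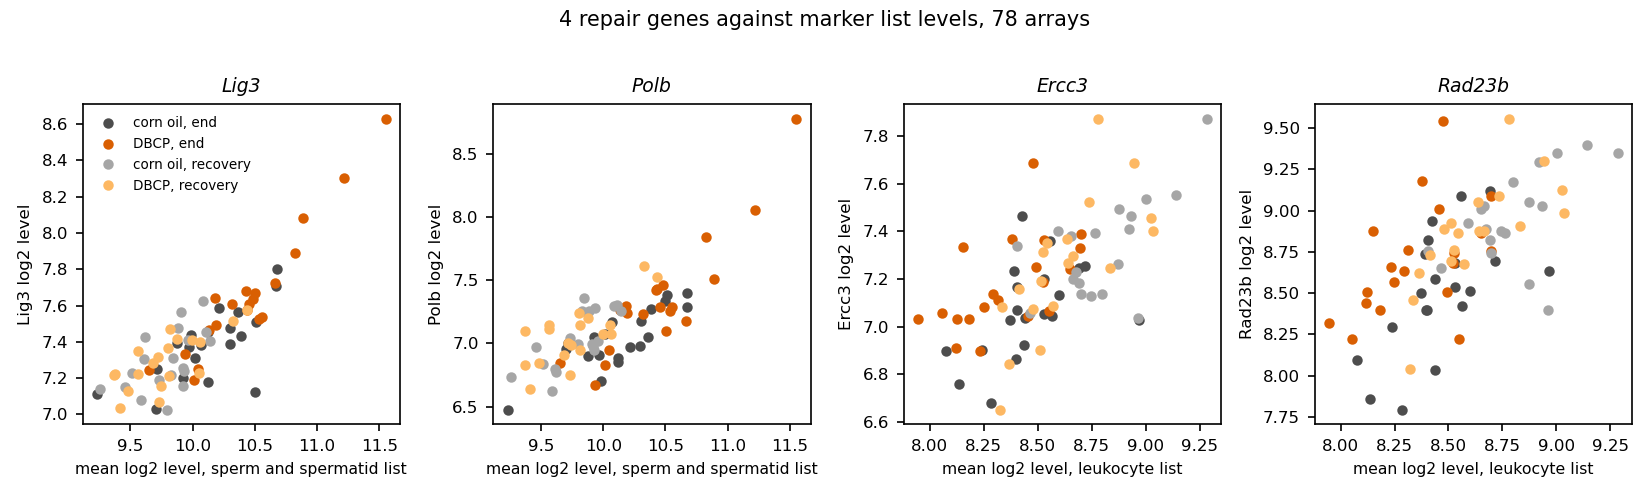
Log2 level of Lig3 and Polb against the mean log2 level of 18 sperm and spermatid genes, and of Ercc3 and Rad23b against that of 19 leukocyte genes, with 1 point per array and colours for the 4 groups. DBCP replicate 13 is the highest point for Lig3 (8.63) and Polb (8.78) and has the highest sperm level (11.55).

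Whether a DBCP difference was present after recovery was asked with 19 arrays per treatment. Again 0 of 39 genes passed limma's test (0% of all probe sets), and 3 had an unadjusted p under 0.05 (7.69%, against 3.71% of all probe sets). The median difference was 0.01, as over all probe sets (0.01), and values ran from -0.09 to 0.21. Ccng1 had 0.11 ± 0.10, and Apex1 0.07 ± 0.05 (limma adjusted p = 0.983 each). Over the alternatives described below, Ccng1 ran from 0.05 to 0.22 and Apex1 from 0.05 to 0.09.

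Lig4, the ligase of end joining, had the smallest p. Its level ran from 5.72 through a median of 6.20 to 6.79 on corn oil recovery arrays and from 5.86 through 6.45 to 6.79 on DBCP recovery arrays. The ranges coincided at the top, and 17 of 19 DBCP arrays lay above the corn oil mean. The difference was 0.21 ± 0.07 (1.16-fold, limma adjusted p = 0.983). Nbn, a sensor of broken ends that works with Rad50, had 0.11 ± 0.04 (17 of 19 arrays) and Ogg1 0.10 ± 0.05 (13 of 19), with the same adjusted p. Over the alternatives Lig4 ran from 0.09 to 0.34, Nbn from 0.07 to 0.14 and Ogg1 from 0.05 to 0.17. Mdm2 had -0.07 ± 0.05, while Mgmt, Cdkn1a and Gadd45a had 0.01 ± 0.05, 0.01 ± 0.05 and 0.05 ± 0.07. The 95% interval of Mgmt ran from -0.10 to 0.11 and that of Cdkn1a from -0.10 to 0.12. Without the 6 arrays, or without DBCP recovery replicate 7 alone, Gadd45a stood just below 0.

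The interaction tested whether the DBCP difference itself differed between the time points. No gene passed (0 of 39, and 0% of all probe sets), and 5 had an unadjusted p under 0.05 in limma's fit (12.8%, against 10.9%). Negative values mean that the DBCP difference was lower after recovery. Ogg1 had 0.21 ± 0.06 and Nbn 0.19 ± 0.06, Chek1 0.21 ± 0.09, Lig3 -0.27 ± 0.10 and Polb -0.28 ± 0.14, with a limma adjusted p of 0.454 for the first 4 and 0.458 for Polb. The difference of Ogg1 was below 0 at the end of exposure and above 0 after recovery, while those of Lig3 and Polb were above 0 at first and 0.00 and 0.03 after recovery.

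Corn oil rats, with 19 arrays after recovery and 20 before it, show the same genes over time without the toxicant. The arrays came from different rats, and age, date and any round of processing cannot be told apart from the recovery period. Of the 39 genes 6 rose and 3 fell. The share that passed, 23.1%, was close to that of all probe sets (24.3%; 11.5% higher and 12.8% lower). With quantile normalization the split was 7 rises and 2 falls, and with centring on the array median 8 and 2. The median difference was -0.01, beside -0.04 over all probe sets. The sperm and spermatid level stood at 9.80 ± 0.24 (SD, n = 19) after recovery against 10.13 ± 0.35 (SD, n = 20), with 10 of its 18 genes falling and 0 rising.

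The largest rise was that of Ccng1. It ran from 7.18 through a median of 7.61 to 8.14 at the end of exposure and from 7.67 through 8.11 to 8.68 after recovery, with all 19 recovery arrays above the earlier mean. The rise was 0.51 ± 0.10 (1.42-fold, limma adjusted p = 0.000174). Rrm2b, the p53-driven subunit that makes nucleotides for repair, rose by 0.21 ± 0.05 (limma adjusted p = 0.00329), from a median of 5.81 (5.48 to 6.21) to 6.08 (5.66 to 6.35). Cdkn1a fell by 0.18 ± 0.05 (limma adjusted p = 0.00944), from a median of 7.31 (7.00 to 7.62) to 7.17 (6.68 to 7.44). Of the 6 p53 targets, 2 rose, 1 fell and 3 (Mdm2, Gadd45a and Sesn1) did not pass. The share that passed was 50%, beside 24.3% of all probe sets. By sign, 5 of the 6 were above 0 (83.3%, against 38.4% of all probe sets), all but Cdkn1a.

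In nucleotide excision repair 2 of 5 genes rose (40%, where 11.5% of all probe sets did). Rad23b went from a median of 8.53 (7.79 to 9.12) to 8.92 (8.40 to 9.40), a rise of 0.45 ± 0.10 (1.36-fold, limma adjusted p = 0.000862), with 18 of 19 recovery arrays above the earlier mean. Ercc3 went from 7.05 (6.68 to 7.47) to 7.34 (7.04 to 7.87), a rise of 0.26 ± 0.07 (limma adjusted p = 0.0054). Groups overlapped for both genes. These 2 genes had the closest relation to the leukocyte level over arrays, and that level was 8.80 ± 0.22 (SD, n = 19) after recovery against 8.46 ± 0.20 (SD, n = 20), with 11 of 19 leukocyte genes rising and 2 falling. Beyond the fits with cell type levels as covariates, the part of other cells in these rises was not tested.

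Atm, the kinase at the head of the response to broken ends, rose by 0.16 ± 0.04 (limma adjusted p = 0.00593), from a median of 6.05 (5.89 to 6.27) to 6.25 (5.78 to 6.47). Xrcc5 (Ku80), which caps broken ends for joining, rose by 0.18 ± 0.06 (limma adjusted p = 0.0172). Xrcc2, a partner in strand exchange, fell by 0.18 ± 0.06 (limma adjusted p = 0.0243), and Ogg1 fell by 0.13 ± 0.04 (limma adjusted p = 0.0331). Mgmt (-0.01) and both mismatch repair genes did not pass. Without the 6 arrays of low weight Ogg1 stood at -0.11 (limma adjusted p = 0.0595). Its call was lost under 7 of 15 alternatives, among them quantile normalization and centring on the array median. The replicate numbers fall into sets 1 to 10 and 11 to 20, which the labels do not call batches. In numbers 1 to 10 alone 8 of 39 genes passed (16.3% of all probe sets), and in numbers 11 to 20 alone 0 did (1.32%). With leukocyte and principal cell levels as covariates 2 passed, Rrm2b and Cdkn1a, where 2.35% of all probe sets did. With sperm and leukocyte levels 3 passed, Rad23b, Ccng1 and Cdkn1a, where 6.91% of all probe sets did.

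**Figure D3:**
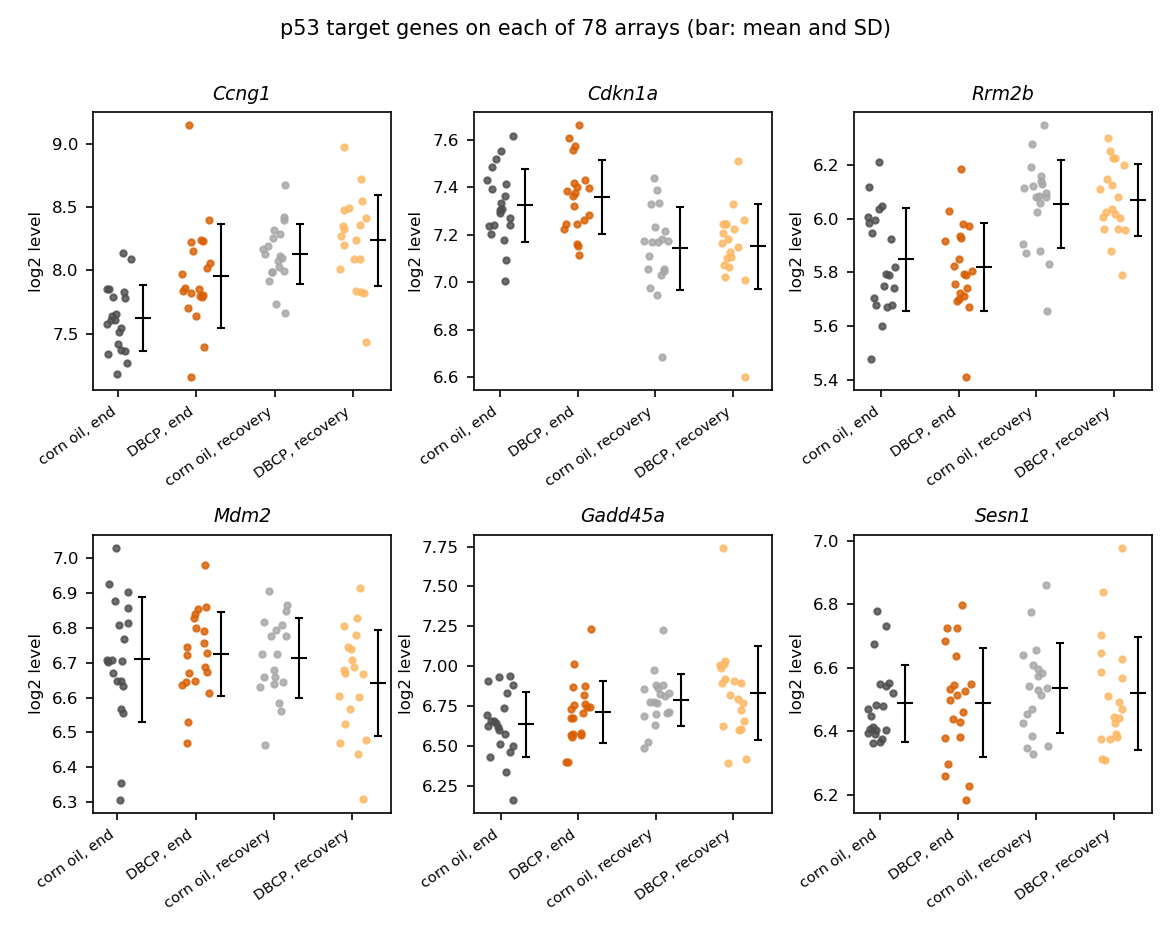
Log2 level of 6 p53 target genes (vertical axis) on each of the 78 arrays by group, with the mean and SD of the group as a bar at the right of the points. The recovery arrays of Ccng1 lie between 7.43 and 8.98, and those of corn oil rats at the end of exposure between 7.18 and 8.14.

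In DBCP rats, the same comparison over time (19 against 20 arrays) shares no array with that in corn oil rats, while it shares its earlier arrays with the first comparison. Here 4 genes rose and 4 fell, a share of 20.5% beside 13.5% of all probe sets (7.28% higher and 6.19% lower). The median difference was 0.03, beside 0.01 over all probe sets. Base excision repair held 3 of the 4 falls.

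Lig3 fell by 0.36 ± 0.07 (0.78-fold, limma adjusted p = 0.000244), from a median of 7.61 (7.19 to 8.63) to 7.28 (7.04 to 7.58), and all 19 recovery arrays lay below the earlier mean. Polb fell by 0.28 ± 0.10 (limma adjusted p = 0.0418), from 7.28 (6.67 to 8.78) to 7.08 (6.64 to 7.62), and Apex1 by 0.14 ± 0.05 (limma adjusted p = 0.0245), from 7.85 (7.66 to 8.35) to 7.76 (7.55 to 7.95). Without the 6 arrays, Lig3 fell by 0.28 ± 0.06 (limma adjusted p = 0.000797), while Polb (-0.18 ± 0.07, limma adjusted p = 0.097) and Apex1 (-0.10 ± 0.04, limma adjusted p = 0.12) did not pass. The sperm and spermatid level was 9.78 ± 0.30 (SD, n = 19) after recovery against 10.45 ± 0.44 (SD, n = 20), with 16 of its 18 genes falling. With sperm and leukocyte levels as covariates Lig3 stood at -0.03 ± 0.06 and Polb at 0.13 ± 0.07, neither passing. With leukocyte and principal cell levels instead, Lig3 stood at -0.43 ± 0.08 (limma adjusted p = 9.6e-05). Polb stood at -0.39 ± 0.11 and Apex1 at -0.18 ± 0.05 (limma adjusted p = 0.0055 and 0.0071). In the former fit 2 of the 39 genes passed (3.22% of all probe sets), and in the latter 9 did (19.2%).

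Nbn rose by 0.21 ± 0.04 (1.16-fold, limma adjusted p = 0.000244), from a median of 5.89 (5.65 to 6.20) to 6.09 (5.75 to 6.34). Xrcc4, the scaffold that holds Lig4 at a broken end, rose by 0.23 ± 0.06 (limma adjusted p = 0.00507; 0.14 ± 0.05 and adjusted p = 0.068 without the 6 arrays). Its recovery arrays had a median of 6.23 and reached 7.04 on replicate 7, an array of low weight, above the earlier maximum of 6.32. Rrm2b rose by 0.25 ± 0.05 (limma adjusted p = 0.000517), Atm by 0.13 ± 0.04 (limma adjusted p = 0.0322), and Cdkn1a fell by 0.21 ± 0.05 (limma adjusted p = 0.0039). The leukocyte level was 8.62 ± 0.22 (SD, n = 19) after recovery against 8.36 ± 0.22 (SD, n = 20), with 11 of its 19 genes rising and 1 falling. In these rats Cdkn1a went from a median of 7.37 (7.11 to 7.66) to 7.16 (6.60 to 7.51), with 18 of 19 recovery arrays below the earlier mean.

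Rrm2b, Atm and Cdkn1a thus passed in the same direction in corn oil and DBCP rats, 3 of 9 genes called in the former (33.3%) and 3 of 8 in the latter (37.5%). Over all probe sets, those called in the same direction in both were 28.8% of the calls in corn oil rats and 52.1% of those in DBCP rats. The call of Atm in DBCP rats was lost with quantile normalization (limma adjusted p = 0.0842). The probe sets of Rrm2b and Atm were dim (percentiles 22.3 and 28.1 of mean levels), as were those of Nbn and Xrcc4 (23.4 and 27.9). The fit of bright probe sets alone therefore left these genes out, while it held Cdkn1a (percentile 73.4). Cdkn1a was also the only gene of the list that passed under both sets of covariates in both comparisons over time. For Ccng1 the difference in DBCP rats was 0.28 (limma adjusted p = 0.0517), and for Rad23b 0.16, neither passing. Ccng1 did pass at the same threshold under 8 of 15 alternatives, among them quantile normalization (limma adjusted p = 0.0129) and the fit without the 6 arrays of low weight (0.0214), with adjusted p between 0.00137 and 0.0495 in these 8. The difference between the treatments did not pass the interaction test for any gene of the list. In replicate numbers 1 to 10 alone 6 of 39 genes passed in DBCP rats (10.4% of all probe sets), and in numbers 11 to 20 alone only Mdm2 did (-0.26 ± 0.06, limma adjusted p = 0.0269; 1.73% of all probe sets).

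**Figure D4:**
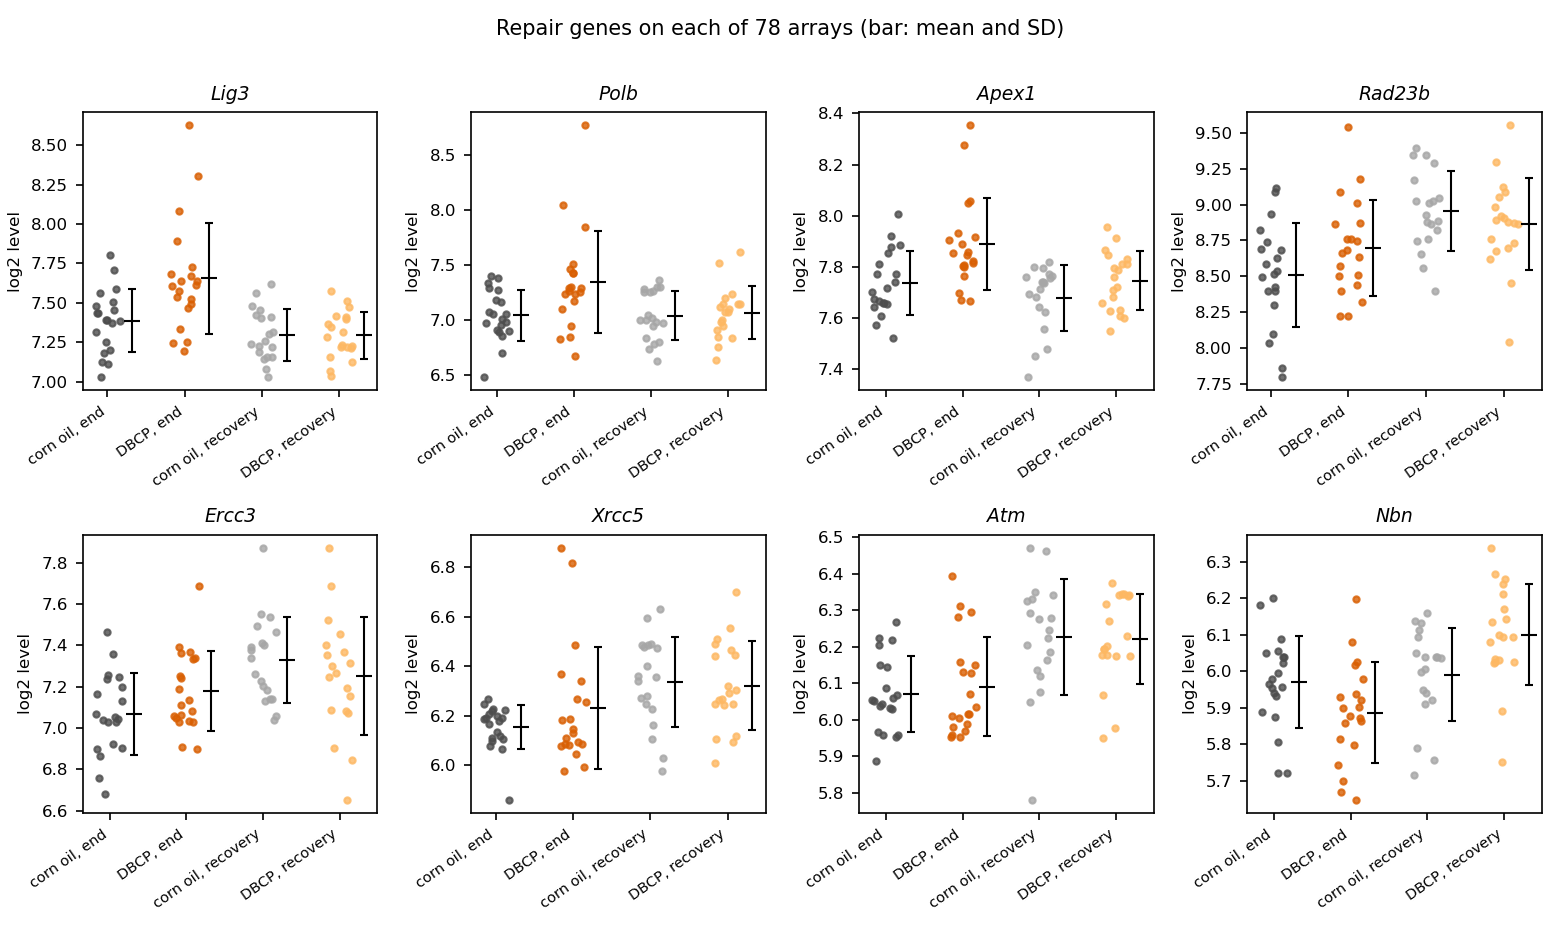
Log2 level of 8 repair genes (vertical axis) on each of the 78 arrays by group, with the mean and SD of the group as a bar at the right of the points. Lig3 reaches 8.63 and Polb 8.78 in the DBCP group at the end of exposure, while their other groups end at 7.80 and 7.62 or below.

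Further genes of the same pathways gave a wider view. Of 66 other DNA repair genes, 0 passed in either comparison of DBCP with corn oil (1 and 4 at an unadjusted p under 0.05 in limma's fit), with medians of -0.02 and 0.01. Of 24 other p53 response genes, 0 passed likewise (4 and 0), with medians of -0.02 and 0.01. In the first comparison the unadjusted counts were 1.52% of the repair genes and 16.7% of the p53 genes, beside 11.6% of all probe sets. Between the recovery groups they were 6.06% and 0%, beside 3.71% of all probe sets. Over time in corn oil rats, 7 repair genes rose and 9 fell (24.2%, beside 24.3% of all probe sets). The rises of smallest p were those of Cetn2, which stabilises the Xpc complex (0.29 ± 0.06), and Gtf2h5, a small subunit of the helicase complex that holds Ercc3 (0.40 ± 0.09). The falls were those of Dntt, which adds bases without a template (-0.20 ± 0.05), and Nhej1, an end joining factor (-0.14 ± 0.04). In DBCP rats 2 rose and 3 fell, a share of 7.58% that was below the 13.5% of all probe sets. Rbbp8, which trims broken ends (0.21 ± 0.06), and Pms1 (0.21 ± 0.06) rose. Ube2n, which builds damage-signalling ubiquitin chains (-0.52 ± 0.11), and Mad2l2 (-0.18 ± 0.04) had the smallest p among the falls.

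Among the other p53 response genes, 5 rose and 3 fell in corn oil rats (33.3%, beside 24.3% of all probe sets). Tp53inp1, a p53 target that promotes cell death (0.28 ± 0.06), and Sesn3 (0.30 ± 0.07) led the rises, and Gdf15 (-0.21 ± 0.05) and Bax, which opens mitochondria in cell death (-0.17 ± 0.05), the falls. In DBCP rats 20.8% passed, beside 13.5% of all probe sets: 2 rose (Tp53inp1 0.25 ± 0.06 and Mdm4, a relative of Mdm2 that restrains p53, 0.25 ± 0.07) and 3 fell, led by Ppm1d (-0.30 ± 0.08) and Bax (-0.18 ± 0.05). Each of these named genes had a limma adjusted p under the threshold. As within the list, known p53 targets moved in both directions over time.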

How the data were processed

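The authors deposited log2 values for 29214 probe sets on 78 arrays, with 0 missing. Limma is named in the submitters' processing notes; no source used here gives the background correction, normalization or summarisation. The values were used as deposited. Symbols came from the platform annotation (15310 probe sets with a single symbol, 323 with several, 13581 with none). The genes, the lists and the rule for named genes (those passing, or the 5 of smallest p, plus Mgmt, Ogg1, Cdkn1a, Mdm2, Ccng1 and Gadd45a against DBCP; 2 per direction of other lists) were chosen with earlier results of these data known.

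A group means model over all 78 arrays was fitted with limma 3.58.1 in R 4.3.3 (lmFit, eBayes), with Benjamini-Hochberg adjustment over all probe sets and a threshold of 0.05. The code was also run on simulated arrays in which each probe set varied independently. Those arrays lack the variation that probe sets of the same array share, so they cannot show how the fit behaves under it. The replicates are labelled as biological; the number of arrays limits the precision. Correlations and promoter motifs, added after the values were seen, used Python 3.11.15. Alternatives covered scaling, dim probe sets, array weights, arrays left out, the variance prior, blocks, covariates, 1 value per gene and an adjusted p of 0.10. Same-numbered arrays deviated together (r over 0.1) in 5 of 19 to 9 of 20 pairs, so numbers were not taken as pairs.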

Additional observations from a re-analysis of the deposited data

How the results depend on the processing

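In both comparisons of DBCP with corn oil and in the interaction, 0 of the 39 genes passed under each alternative, except the 6 named above with leukocyte and principal cell levels as covariates. Over time, counts in corn oil and DBCP rats were 9 and 8. They were 5 and 5 among bright probe sets alone, where 18 of the genes were tested (37.5% and 16.3% of all bright probe sets passed) and the median in DBCP rats was -0.026 instead of 0.033. Counts were 0 and 1 in replicate numbers 11 to 20 alone, where 1.32% and 1.73% of all probe sets passed. With sperm and leukocyte levels as covariates they were 3 and 2 (6.91% and 3.22% of all). With leukocyte and principal cell levels they were 2 and 9 (2.35% and 19.2% of all). The cause was not tested. With the replicate number as a block counts were 9 and 8 (21.3% and 13.3% of all probe sets). In DBCP rats 7 of the 8 genes were kept, Polb was lost (adjusted p = 0.0619) and Ccng1 gained (0.30, adjusted p = 0.0364), and no comparison with DBCP gained a call. With array weights counts were 10 and 9 (28.9% and 16.6% of all probe sets). In DBCP rats Apex1 was then lost, while Ccng1 (0.28, limma adjusted p = 0.0118) and Ogg1 (0.14, limma adjusted p = 0.0153) passed as rises.

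Reversed values were these. At the end of exposure Mdm2 stood at -0.0021 without the 6 arrays of low weight and at -0.080 in numbers 1 to 10. After recovery Mdm2 stood at 0.011 in numbers 1 to 10. Mgmt after recovery stood at -0.019 (quantile normalization), -0.0081 (median centring), -0.0041 (without DBCP recovery replicate 7), -0.0046 (replicate block), -0.014 (numbers 11 to 20), -0.024 (leukocyte and principal cell levels) and -0.021 (sperm and leukocyte levels). Cdkn1a stood at -0.0053 (median centring) and -0.092 (numbers 11 to 20), and Gadd45a at -0.0084 (without the 6 arrays) and -0.0041 (without replicate 7). Polb over time in DBCP rats, a called value of -0.28, stood at 0.13 with sperm and leukocyte levels. Signal over background was not measured, so what dim probe sets can show was not tested.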
